A study of Mus musculus with 18 samples.

Results

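The comparison described here is that of mCherry-positive with mCherry-negative cells from embryonic mouse kidneys that had received a vector against Rock1 and Rock2. Its members are the 6 libraries labelled rock1/2-shRNA, 3 positive and 3 negative, of 18 libraries in the series, and they were taken by their labels without regard to any measured value. The kidneys came from wild-type CD1 mice, an outbred stock, at embryonic day 14. AAV2, a small parvovirus used as a vector, was given to them for 4 hours. Its CAG promoter (active in most cell types) drives mCherry followed by 2 short hairpin RNA (shRNA) cassettes in a mir30 backbone. In the Rock1/2-shRNA vector 1 cassette targets Rock1 and the other Rock2. The other vectors of the series carry scrambled Rock1 and Rock2 target sequences (scramble-shRNA) or 2 cassettes against Mylk (Mylk-shRNA). Every group was wild type, and positive and negative cells alike came from kidneys bathed in the virus. After the explants had spent 72 hours in a gel of collagen I and matrigel, those of 1 vector and 1 litter were pooled, digested for 30 minutes with trypsin and collagenase, and sorted. The brightest 25% of cells by mCherry formed the positive fraction and the dimmest 50% the negative fraction, so the fractions differ in reporter level and may each hold a mixture of cell types. Litters 1, 2 and 3 each gave 1 library per fraction, and both fractions of a litter were sorted from the same pooled culture. Since every positive cell is brighter than every negative cell, the effects of the hairpins, of the virus and of the kind of cell that takes up the virus cannot be told apart within 1 vector. Values given in threes below are in the order of litters 1, 2 and 3, and an error after ± is a standard error (SE).

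Rock1 and Rock2 encode protein kinases that act downstream of the small GTPase RhoA. They phosphorylate and so inhibit myosin phosphatase, which keeps myosin light chains phosphorylated and actomyosin under tension. Mylk encodes myosin light chain kinase, which phosphorylates the same light chains in response to calcium. In the developing kidney, nephrons arise from a cap of progenitor cells around the tips of the branching ureteric bud, and both are surrounded by stroma, vessels and resident macrophages. AAV2 enters cells through heparan sulfate and integrins and through an intracellular receptor, and a mir30-based hairpin needs the cell's microRNA enzymes to be processed.

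With Rock1/2-shRNA the positive fraction held more RNA of macrophage, stromal and smooth muscle genes than the negative fraction of the same litters. It held less RNA of early nephron, ureteric, epithelial and endothelial genes and of genes induced by low oxygen and by protein stress. Rock1 and Rock2 themselves did not pass the test. In bulk RNA fewer cells of a type and less RNA per cell cannot be told apart, which holds for every cell type named below. Of 16544 genes tested, 3369 were called different between the fractions at an adjusted p under 0.05 by edgeR's quasi-likelihood test with the litter as a term (20.4%). In all 1871 were higher (11.3%) and 1498 lower (9.05%) in the positive fraction. Those shares are the background for each count of a gene list below. The share of all genes whose fractions did not overlap is not given, so statements of separate fractions below have no such background. The median log2 fold change over all genes tested was -0.019. Without the litter term 1859 genes were called, 1148 higher and 711 lower, and all 1859 were also called, with the same sign, when the litter was included. Leaving out the positive library of litter 2 gave 2029 calls, 1208 higher and 821 lower, and leaving out that of litter 1 gave 989 lower.

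**Figure D1:**
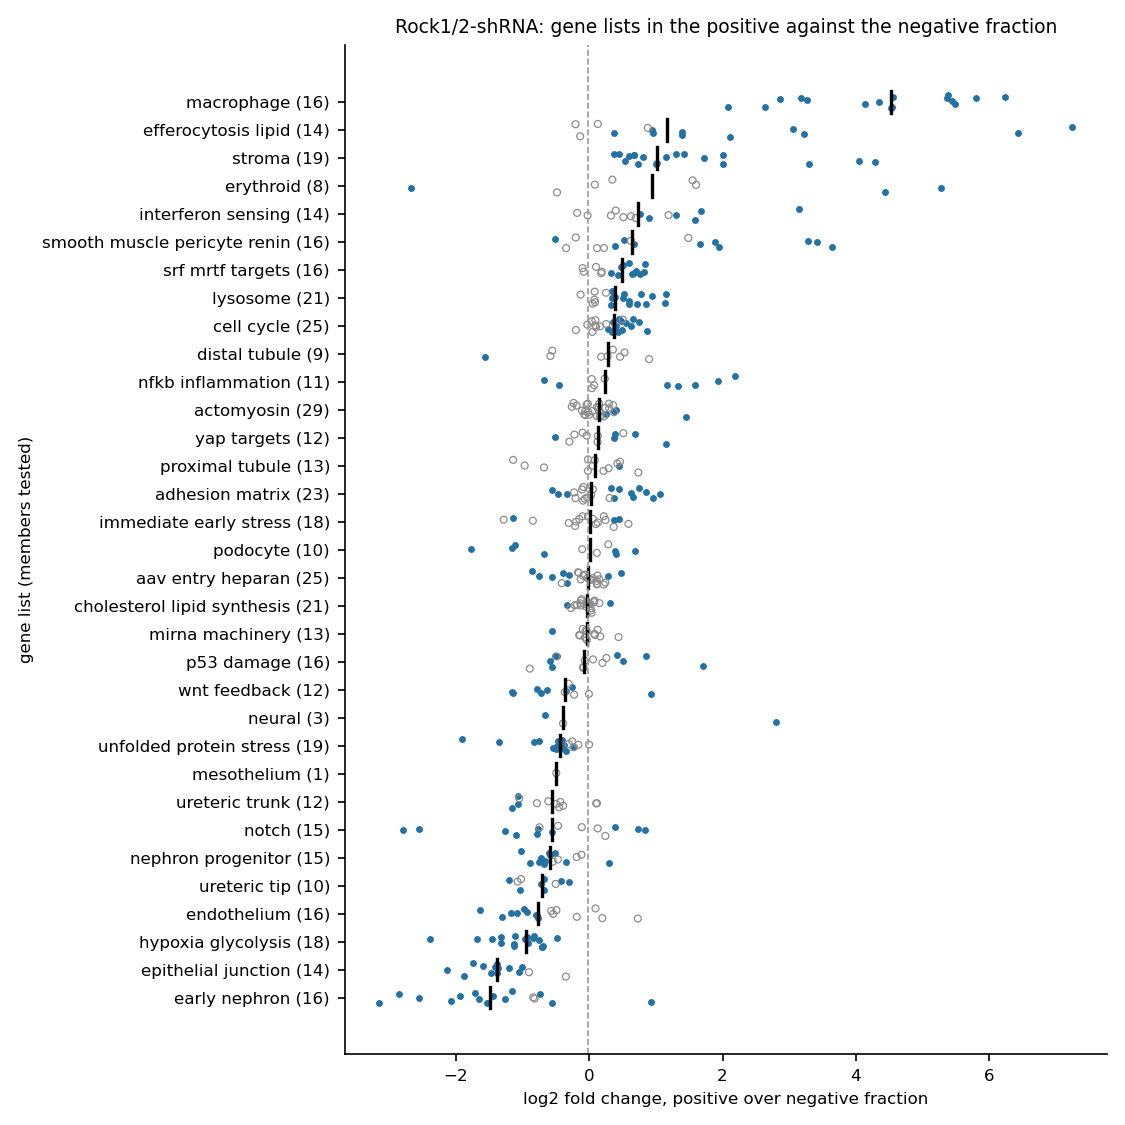
Log2 fold change of the positive over the negative fraction with Rock1/2-shRNA (horizontal axis) for each tested member of each gene list (vertical axis, with the number of members tested). Filled points passed the test and open points did not, vertical bars are list medians and the dashed line is the median of all genes; macrophage members lie from 2.08 to 6.24 and every hypoxia member lies below -0.47.

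The libraries held 3121616 to 11492560 counts, with the positive library of litter 1 the smallest. Mitochondrially encoded genes took 2.74 to 6.26% of the counts, and both values above 6 were those of litter 3. Transcripts of Y-linked genes stood at 167 and 179 CPM (the count per 1000000 counts of a library) in the positive and negative libraries of litter 3 and at 22.6 to 49.8 CPM in the others. Xist, which is transcribed from the inactive X chromosome, stood at 3.92 and 1.71 CPM in litter 3 and at 181 to 253 CPM in the others. Both libraries of litter 3 thus stood apart from the others in these last 3 measures. The litter, which the labels number, is a term of the test that all vectors share. In litter 3 Xist stood at 252 and 376 CPM with scramble-shRNA and at 255 and 320 CPM with Mylk-shRNA (positive and negative). The shared term therefore cannot take up a deviation found with Rock1/2-shRNA alone. With the culture as block, which gives each vector and litter its own term, 3026 genes were called. The labelled tissue was borne out by Six2, Foxd1, Pax8 and Ret, markers of nephron progenitors, cortical stroma, early nephrons and ureteric tips, which were all measured, whereas the podocyte genes Nphs1 and Ptpro had too few counts to be tested.

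The targeted genes were measured first. Rock1 (ENSMUSG00000024290) stood at 82.2, 83.9 and 74.7 CPM in the positive libraries and at 80.5, 90.9 and 73.6 CPM in the negative libraries of litters 1, 2 and 3. The fractions overlapped, and the log2 fold change of positive over negative was -0.072 ± 0.12 (adjusted p = 0.741; exact permutation test, 2-sided p = 1). It became 0.0058 without the positive library of litter 3 and 0.027 without the negative library of litter 2. Rock2 (ENSMUSG00000020580) stood at 56.2, 67.7 and 65 CPM in the positive and at 70.4, 76.3 and 69.3 CPM in the negative libraries. Every positive library lay below every negative library, with a log2 fold change of -0.23 ± 0.12, which did not pass over all genes (adjusted p = 0.205; 0.0327 in a fit to these 6 libraries alone). The exact permutation test, which does not pair the libraries by litter, gave p = 0.1 for Rock2, the smallest that 3 libraries against 3 allow. The 95% interval of the positive level over the negative level was 0.800 to 1.13 for Rock1 and 0.712 to 1.02 for Rock2. The same difference between fractions was -0.16 ± 0.12 for Rock2 with scramble-shRNA and -0.23 ± 0.12 with Mylk-shRNA. The difference of the Rock1/2-shRNA value from that of scramble-shRNA was -0.073 ± 0.17, unadjusted p = 0.679, so a Rock2 difference particular to the Rock1/2 hairpins was not detectable at this depth. For Rock1 that difference of differences was 0.11 ± 0.17, unadjusted p = 0.524. The counts are per gene and say nothing of protein.

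Mylk (ENSMUSG00000022836), which this vector does not target, stood at 223, 177 and 151 CPM in the positive and 63.9, 63.4 and 66.8 CPM in the negative libraries. Every positive library lay far above every negative one, 2.74-fold on average (log2 fold change 1.45 ± 0.12, adjusted p = 1.27e-08). Mylk is abundant in smooth muscle. Of 16 genes of smooth muscle, pericytes and renin cells 9 were called higher in the positive fraction and 1 lower, and their part in the Mylk difference was not tested.

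Macrophage genes showed the widest separation of any list. All 16 of 16 were called higher in the positive fraction, against 11.3% of all genes, around a median of 4.53 on the log2 scale. In none did the fractions overlap. Their summed level was 318 to 516 CPM in the positive libraries and 17.2 to 22.2 CPM in the negative libraries. The kidney acquires its first macrophages from the yolk sac and fetal liver, and they clear dying cells by complement and lipid receptors. The transcription factor PU.1, encoded by Spi1, is known to drive many macrophage genes. RefSeq promoter windows of 300 bases, 250 before and 50 after the gene start (build GRCm38.p6), are shown for 2 chains of complement C1q. They had the largest differences among called members with a single window that held the PU.1 core, so that a match was fixed by the choice. The third chain gene, C1qa, did not meet these conditions. Capitals mark the PU.1 core GAGGAA read on either strand, and both windows are printed on the strand of the gene. That of C1qc is chr4:136892865-136893164 and that of C1qb chr4:136886151-136886450, both on the minus strand.
C1qc: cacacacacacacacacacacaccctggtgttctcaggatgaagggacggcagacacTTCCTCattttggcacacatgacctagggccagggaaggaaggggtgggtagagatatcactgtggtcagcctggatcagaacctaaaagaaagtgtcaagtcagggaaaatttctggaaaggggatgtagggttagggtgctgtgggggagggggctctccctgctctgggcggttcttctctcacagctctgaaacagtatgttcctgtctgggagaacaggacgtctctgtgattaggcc
C1qb: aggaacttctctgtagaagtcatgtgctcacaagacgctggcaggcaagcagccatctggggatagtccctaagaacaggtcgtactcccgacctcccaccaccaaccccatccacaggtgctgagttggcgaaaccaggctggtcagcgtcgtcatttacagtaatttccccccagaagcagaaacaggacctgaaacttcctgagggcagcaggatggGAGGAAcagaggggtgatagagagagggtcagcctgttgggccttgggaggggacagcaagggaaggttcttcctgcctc
The core lay 193 to 188 bases before the start of C1qc and 30 to 25 before that of C1qb. Of the 16 list members 11 had a window and 8 of these held GAGGAA (72.7%), against 31.3% of 27025 genes. A match of this kind is a description of the letters, not a binding site.

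C1qc, which encodes the C chain of complement C1q, stood at 54.5, 83.2 and 74.2 CPM in the positive and 1.31, 1.04 and 1.14 CPM in the negative libraries. The fractions did not overlap, and the positive level was 55.5-fold the negative one (log2 fold change 5.79 ± 0.19, adjusted p = 1.15e-14). C1qb stood at 23.7, 41.3 and 44.3 against 0.870, 0.692 and 0.570 CPM (log2 fold change 5.49 ± 0.24, adjusted p = 8.06e-13), again with a wide gap and litter 1 lowest among the positive libraries. C1qa stood at 24.7, 51.5 and 53.9 CPM against 0.783, 0.576 and 0 CPM (log2 fold change 6.24 ± 0.32, adjusted p = 4.68e-11), where the negative library of litter 3 held no count. All 3 chains of C1q, which assemble into 1 molecule, were thus higher in the positive library of every litter. Csf1r, the receptor for the growth factor that macrophages need to survive, stood at 16.7, 26.3 and 21.5 CPM against 0.957, 0.461 and 1.14 CPM (log2 fold change 4.56 ± 0.41, adjusted p = 4.06e-07). Adgre1, the gene of the F4/80 antigen, stood at 4.16, 9.47 and 7.35 CPM against 0.261, 0.115 and 0 CPM and is near the limit of detection in the negative libraries. Spi1 itself stood at 9.61, 11 and 11.3 against 1.74, 0.576 and 0.427 CPM (log2 fold change 3.27 ± 0.37, adjusted p = 1.89e-06). This was a smaller log2 value than for the C1q genes, and the negative library of litter 1 was above the other 2. Cx3cr1, the fractalkine receptor, was the member whose positive libraries differed most among litters, at 5.13, 17.5 and 13.2 CPM against 0.261, 0.346 and 0.142 CPM. The general leukocyte gene Ptprc (CD45) had the smallest difference of the list, 3.52, 3.79 and 4.41 CPM against 0.783, 1.04 and 0.712 CPM (log2 fold change 2.08 ± 0.37, adjusted p = 0.000250).

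Macrophage genes also led the ranking of called genes. Of the 12 genes with the largest increase by the naming rule given below, which asks for at least 5 CPM, 11 are known from macrophages. The other was the embryonic globin gene Hba-x. Gpnmb, a glycoprotein of phagocyte lysosomes, stood at 195, 200.3 and 101 CPM against 1.91, 2.82 and 0.712 CPM (log2 fold change 6.44 ± 0.32, adjusted p = 2.24e-09). Mpeg1, which encodes the pore-forming protein perforin-2, stood at 36.5, 54.2 and 50.4 CPM against 0.870, 1.15 and 0.997 CPM (log2 fold change 5.46 ± 0.25, adjusted p = 2.43e-12). Gpnmb was lowest in litter 3 in both fractions, unlike Mpeg1. Pf4, a chemokine gene that fetal macrophages and megakaryocytes express, stood at 10.6, 25.8 and 24.5 CPM against 0.174, 0.807 and 0 CPM. The receptors of the complement fragments C3a and C5a followed, with log2 fold changes of 5.47 ± 0.31 for C3ar1 and 5.45 ± 0.33 for C5ar1, then the Fc receptor gene Fcgr3 (5.34 ± 0.40) and the lipid receptor gene Trem2 (5.44 ± 0.41). Each of these had separate fractions in the 3 litters.

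**Figure D2:**
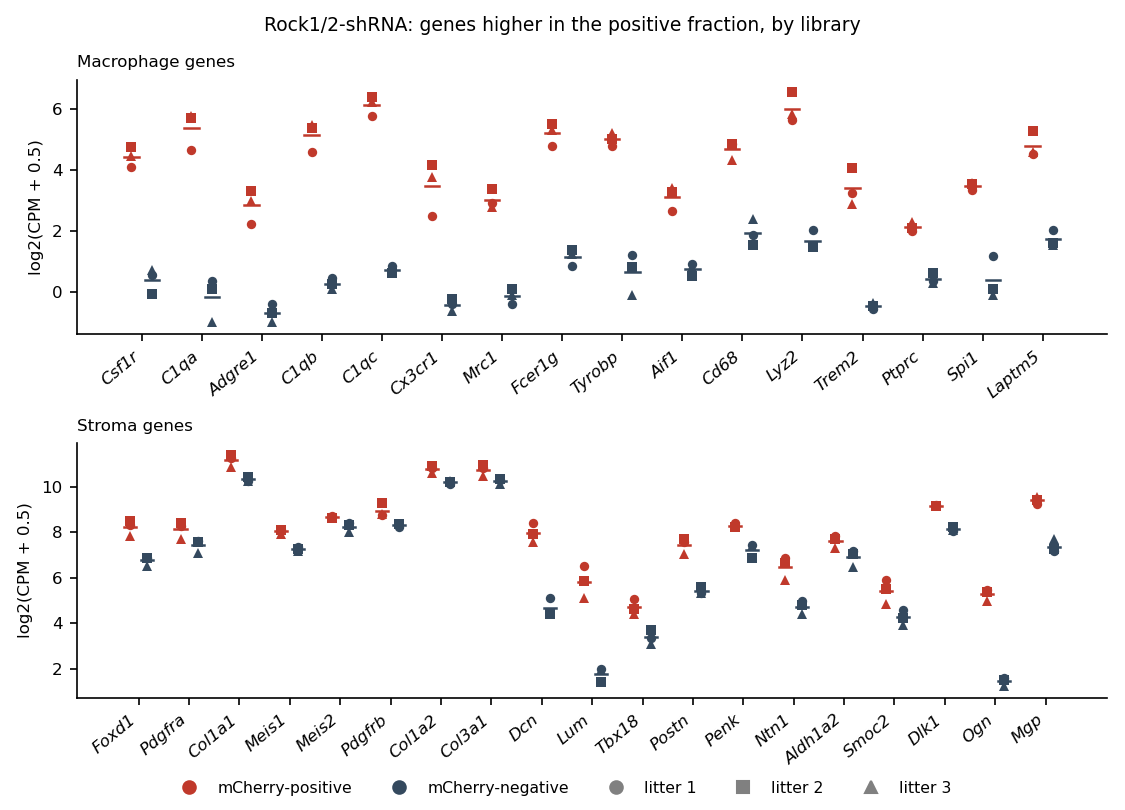
Levels as log2(CPM + 0.5) on the vertical axis of each macrophage (top) and stroma (bottom) gene in the 6 libraries with Rock1/2-shRNA; red marks are positive and dark marks negative libraries, the marker shape gives the litter and bars are group means. No gene in either panel has overlapping fractions, and C1qc lies near 6 in the positive and near 0.7 in the negative libraries.

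Genes for the uptake of dying cells and the handling of their lipid were higher as a group, with 10 of 14 called higher, none lower and a median of 1.18. Apoe, the lipid carrier that macrophages secrete in quantity, stood at 368, 451 and 355 CPM against 43.8, 43.9 and 33.6 CPM. The positive level was 9.34-fold the negative one (log2 fold change 3.22 ± 0.14, adjusted p = 1.33e-12). Gas6, a bridge between phosphatidylserine and its receptors, stood at 106, 98.1 and 76.4 against 29.8, 17.5 and 15.8 CPM (log2 fold change 2.11 ± 0.13, adjusted p = 1.21e-10). The receptor gene Mertk stood at 15.7, 16.4 and 14.2 against 6.70, 5.30 and 5.27 CPM (log2 fold change 1.39 ± 0.17, adjusted p = 3.54e-06). The fractions were separate for both the bridge and its receptor. Timd4, a phosphatidylserine receptor of resident macrophages, was counted in the positive libraries alone, at 0.961, 4.61 and 2.69 CPM against 0 in each negative library. The scavenger receptor gene Cd36 and the lipase gene Lpl were also higher (3.05 ± 0.47 and 1.40 ± 0.14 on the log2 scale). Tyro3 and Pros1, another receptor of the same family and a ligand, were not called (0.13 ± 0.14 and -0.13 ± 0.10).

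Lysosomal genes were higher by smaller amounts, with 15 of 21 called higher, none lower and a median of 0.39. The protease genes Ctsb and Ctsd led them. Ctsb stood at 516, 566 and 399.6 CPM against 217, 234 and 191 CPM (log2 fold change 1.15 ± 0.10, adjusted p = 3.00e-08). Ctsd stood at 426, 482 and 375 CPM against 174, 211 and 180.1 CPM (log2 fold change 1.14 ± 0.096, adjusted p = 1.99e-08), with no overlap of fractions in either. Grn, the progranulin gene, and Psap, which activates enzymes that break down sphingolipids, were 0.95 ± 0.084 and 0.86 ± 0.087 higher on the log2 scale, and the membrane protein gene Lamp1 0.60 ± 0.081. Lamp2 was not called (0.082 ± 0.10), nor was Tfeb, which encodes a regulator of lysosomal genes (0.052 ± 0.18). All cells use these genes and macrophages use many of them heavily. Macrophage genes were higher in the same libraries, and their part in the lysosomal difference was not tested.

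Stromal genes were all higher in the positive fraction. All 19 of 19 were called, none overlapped between fractions, and the median log2 fold change was 1.01. Foxd1, the transcription factor gene that defines cortical stroma, stood at 323, 359 and 231 CPM in the positive and 117, 118 and 92.5 CPM in the negative libraries. Litter 3 was lowest in both fractions, and the positive level was 2.68-fold the negative one (log2 fold change 1.42 ± 0.11, adjusted p = 4.87e-09). Pdgfra stood at 309, 345 and 208 CPM against 196, 189.7 and 137 CPM (log2 fold change 0.67 ± 0.11, adjusted p = 0.000159), also with separate fractions. Meis1 stood at 275, 277 and 240.1 against 162, 154 and 143 CPM (log2 fold change 0.74 ± 0.093, adjusted p = 4.64e-06). Within the stroma the largest differences were in small leucine-rich proteoglycans of the matrix. Ogn (osteoglycin) stood at 43.6, 41.2 and 30.8 CPM against 2.52, 2.31 and 1.85 CPM (log2 fold change 4.04 ± 0.18, adjusted p = 1.33e-12). Lum (lumican) stood at 91.3, 58.2 and 33.8 against 3.39, 2.19 and 3.28 CPM (log2 fold change 4.28 ± 0.30, adjusted p = 4.51e-08). Dcn (decorin) stood at 339.6, 246 and 190.5 against 33.7, 20.9 and 21.4 CPM (log2 fold change 3.29 ± 0.19, adjusted p = 2.07e-09). Lum and Dcn were highest in litter 1 and lowest in litter 3 among the positive libraries, a spread that the negative libraries did not show for Lum. The fibrillar collagens are far more abundant and changed less, with Col1a1 at 2467, 2716 and 1864 CPM against 1246, 1399 and 1228 CPM (log2 fold change 0.81 ± 0.11, adjusted p = 1.27e-05). Tbx18, a transcription factor gene of the ureteric mesenchyme, was 1.30 ± 0.18 higher, and Postn, a matrix protein gene, 2.01 ± 0.13. Meis2 had the smallest difference, 0.38 ± 0.092, and its call ended without litter 3 (adjusted p = 0.0972) and without the negative library of litter 3 (0.0619).

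Adhesion and matrix genes divided. Of 23 tested, 9 were called higher and 3 lower (5 and 1 without the litter term, 8 and 1 without litter 3), around a median of 0.031. The membrane protease gene Mmp14 stood at 306, 351 and 303 CPM against 133, 161 and 150.4 CPM (log2 fold change 1.07 ± 0.12, adjusted p = 9.14e-07). Tenascin C (Tnc) stood at 84.9, 83.9 and 62.4 against 42, 41.1 and 31.2 CPM (log2 fold change 0.96 ± 0.11, adjusted p = 1.19e-06). Neither overlapped between fractions. Fibronectin (Fn1) and the protease inhibitor genes Timp1 and Timp2 were higher too (0.75 ± 0.17, 0.85 ± 0.15 and 0.62 ± 0.079). The laminin gene Lamc1 was lower (-0.47 ± 0.12), a call that ended without the litter term (adjusted p = 0.185). The integrin genes Itgb1 and Itgav were not called (0.031 ± 0.081 and -0.090 ± 0.091).

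Smooth muscle genes were higher and spread widely between litters. Of 16 genes of smooth muscle, pericytes and renin cells, 9 were called higher and 1 lower, with a median of 0.65. Acta2, smooth muscle actin, stood at 562, 258 and 216 CPM against 79.2, 79.5 and 85.9 CPM. Every positive library exceeded every negative one, and litter 1 was by far the highest of the positive libraries (log2 fold change 1.95 ± 0.33, adjusted p = 0.00136). The call of Acta2 ended in a fit to the 6 libraries alone (adjusted p = 0.113). Myh11, the smooth muscle myosin heavy chain, stood at 19.2, 8.52 and 3.92 CPM against 0.696, 1.04 and 1.14 CPM (log2 fold change 3.42 ± 0.56, adjusted p = 0.000406). Cnn1 (calponin) stood at 15.7, 4.73 and 3.43 CPM against 0.609, 0.922 and 0.712 CPM (log2 fold change 3.28 ± 0.61, adjusted p = 0.000962). Both were again highest in the positive library of litter 1 and separate between fractions. Myl9, the regulatory light chain that the kinases of Rock1 and Rock2 keep phosphorylated, stood at 112, 61.9 and 64 CPM against 21.9, 18.1 and 21.2 CPM (log2 fold change 1.89 ± 0.17, adjusted p = 2.56e-07). The pericyte gene Rgs5 had overlapping fractions and was not called (-0.20 ± 0.20), nor was the renin gene Ren1 (0.63 ± 0.45). Des, the gene of the filament protein desmin, was the 1 member called lower, at 34, 37.9 and 38.9 CPM against 41.4, 56.6 and 53.4 CPM (log2 fold change -0.51 ± 0.12, adjusted p = 0.00359), a call that ended without the litter term (adjusted p = 0.116) and without the positive library of litter 2 (0.0691).

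The machinery of actomyosin tension was nearly level between the fractions. Of 29 tested genes 4 were called higher and none lower, a share of 13.8% against 11.3% of all genes, and 2 were called without the litter term. Besides Mylk these were the myosin light chain gene Myl6 at 543, 457 and 401 CPM against 359.9, 332 and 332 CPM (log2 fold change 0.40 ± 0.097, adjusted p = 0.00528), Rhoc (log2 fold change 0.25 ± 0.084, adjusted p = 0.0389) and the nonmuscle myosin gene Myh10 (log2 fold change 0.38 ± 0.13, adjusted p = 0.0495). The call of Myl6 ended without the positive library of litter 1 (adjusted p = 0.0545). That of Rhoc ended without the litter term (adjusted p = 0.0955), with culture in place of litter (0.0752), without the count filter (0.333), without the positive library of litter 1 (0.182) or 2 (0.123) and without the negative library of litter 1 (0.137) or 2 (0.147), and that of Myh10 without the litter term (adjusted p = 0.163), with DESeq2 size factors (0.0547), with DESeq2 (0.0569), without litter 3 (0.133), without the positive library of litter 1 (0.133), 2 (0.133) or 3 (0.0745) and without the negative library of litter 1 (0.174) or 3 (0.245). RhoA itself (Rhoa), which activates both kinases, was not called (0.12 ± 0.079), nor were the nonmuscle myosin gene Myh9 (0.12 ± 0.14), the myosin phosphatase target subunit Ppp1r12a (-0.055 ± 0.13), or Limk1 and Limk2, kinases that act downstream of those of Rock1 and Rock2 (0.37 ± 0.17 and -0.26 ± 0.13).

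Targets of SRF and its actin-sensing cofactors MRTF were higher in greater number, 11 of 16 with none lower and a median of 0.49. SRF binds the CArG box, and the promoter windows of 2 members that hold it are shown with the box in capitals. Both are from RefSeq (GRCm38.p6) and are printed on the strand of the gene, that of Cnn2 at chr10:79988350-79988649 on the plus strand and that of Lima1 at chr15:99820100-99820399 on the minus strand.
Cnn2: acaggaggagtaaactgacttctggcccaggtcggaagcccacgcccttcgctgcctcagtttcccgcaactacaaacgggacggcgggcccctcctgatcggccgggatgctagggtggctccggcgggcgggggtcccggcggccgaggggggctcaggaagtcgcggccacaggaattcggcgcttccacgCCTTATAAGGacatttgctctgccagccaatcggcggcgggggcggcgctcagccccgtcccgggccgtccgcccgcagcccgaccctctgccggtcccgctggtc
Lima1: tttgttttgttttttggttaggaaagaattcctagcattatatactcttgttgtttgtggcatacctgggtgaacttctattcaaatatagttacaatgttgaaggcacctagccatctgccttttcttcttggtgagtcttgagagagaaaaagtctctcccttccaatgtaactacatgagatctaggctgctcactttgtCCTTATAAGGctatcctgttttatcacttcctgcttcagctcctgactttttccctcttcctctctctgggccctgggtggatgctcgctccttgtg
The box lay 56 to 47 bases before the start of Cnn2 and 47 to 38 before that of Lima1. The motif is its own reverse complement, so that a match on 1 strand is a match on the other. Of 15 members with a window 7 held a CArG box (46.7%), against 1.81% of 27025 genes. The members were listed as SRF targets, so this share describes the list and tests nothing in these libraries. Cnn2, an actin-binding calponin, stood at 177, 139 and 154 CPM against 89.5, 93.2 and 108 CPM (log2 fold change 0.65 ± 0.11, adjusted p = 0.000241). Lima1, which bundles actin filaments, stood at 136, 139 and 91.3 against 80.7, 85.2 and 66.7 CPM (log2 fold change 0.60 ± 0.12, adjusted p = 0.000716). The fractions were separate for both. Actn1 (alpha-actinin) stood at 416, 436 and 354 CPM against 226, 245 and 215 CPM (log2 fold change 0.77 ± 0.095, adjusted p = 3.83e-06). Lmna (lamin A/C) stood at 129, 146 and 129.5 against 55.7, 80 and 88.1 CPM (log2 fold change 0.83 ± 0.12, adjusted p = 2.84e-05). Both were higher in every litter without overlap. Srf was not called (-0.098 ± 0.098), nor was Zyx (0.10 ± 0.093), a protein of focal adhesions. Smooth muscle and stroma use many of these genes, and their part in this difference was not tested. Of 12 genes induced by YAP, 4 were called higher and 1 lower, or 2 and 0 without the litter term. Axl, a receptor kinase gene, was 0.37 ± 0.095, Ccn2 0.69 ± 0.22, Ankrd1 1.15 ± 0.34 and Lats2 0.39 ± 0.11, and Ptpn14 was -0.51 ± 0.13. The call of Ccn2 ended without the litter term (adjusted p = 0.128), with culture in place of litter (0.0602), in a fit to the 6 libraries alone (0.0858), without the positive library of litter 1 (0.155), 2 (0.0820) or 3 (0.0537) and without the negative library of litter 1 (0.158) or 3 (0.155), that of Ankrd1 without the litter term (adjusted p = 0.134), without litter 3 (0.0654), without the positive library of litter 1 (0.111) or 2 (0.0632) and without the negative library of litter 1 (0.123) or 3 (0.0779), that of Lats2 without the positive library of litter 1 (adjusted p = 0.0552) or 2 (0.0884) and without the negative library of litter 1 (0.0518) or 3 (0.0612) and that of Ptpn14 without the litter term (adjusted p = 0.326), without the positive library of litter 2 (0.0875) and without the negative library of litter 2 (0.0646).

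Genes of the newly forming nephron were lower in the positive fraction. Of 16 early nephron genes 13 were called lower, against 9.05% of all genes, and 1 higher, with a median log2 fold change of -1.49. Lhx1, a transcription factor gene that renal vesicles switch on, stood at 2.88, 6.27 and 2.69 CPM in the positive and 33.3, 58.2 and 20.2 CPM in the negative libraries. Litter 2 was highest in both fractions, and the positive level was 8.85-fold lower (log2 fold change -3.15 ± 0.47, adjusted p = 0.000371). Wnt4, the signal by which progenitors turn into epithelium, stood at 108, 114 and 109.7 CPM against 311, 437 and 312 CPM (log2 fold change -1.72 ± 0.13, adjusted p = 6.43e-09). Pax8 stood at 13.5, 14.8 and 11.3 CPM against 62, 69.1 and 32.1 CPM (log2 fold change -2.08 ± 0.28, adjusted p = 6.50e-05), again lowest in litter 3. The Notch ligand gene Dll1 stood at 5.13, 5.32 and 3.92 CPM against 28.1, 37.2 and 15.4 CPM (log2 fold change -2.55 ± 0.30, adjusted p = 9.74e-06). None of these 4 overlapped between fractions. Osr2, Bmp2, Cdh6 and Fgf8 were also lower (-2.86 ± 0.36, -1.65 ± 0.16, -1.54 ± 0.26 and -1.45 ± 0.27). Dkk1, a secreted inhibitor of Wnt signalling, went the other way, at 41, 38 and 44.1 CPM against 27.8, 20.2 and 15 CPM (log2 fold change 0.93 ± 0.16, adjusted p = 0.000185). Irx1 and Irx2, of the later tubule segments, were low everywhere and not called.

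Nephron progenitor genes were lower by less. Of 15 tested 10 were called lower and 1 higher, with a median of -0.59, and 6 and 0 were called without the litter term. Six2, which keeps progenitors undifferentiated, stood at 221, 203 and 186 CPM against 367, 337 and 250.3 CPM (log2 fold change -0.68 ± 0.15, adjusted p = 0.00369). Eya1, its partner, stood at 54.3, 56 and 52.4 CPM against 109, 104 and 79.4 CPM (log2 fold change -0.89 ± 0.14, adjusted p = 6.75e-05). The fractions were separate for both. Uncx, another transcription factor gene, stood at 102, 84.5 and 76.4 against 182, 191 and 140.3 CPM (log2 fold change -1.02 ± 0.17, adjusted p = 0.000233). Spock2, which encodes a matrix proteoglycan, stood at 86.8, 80.7 and 77.2 against 137, 139 and 115 CPM (log2 fold change -0.73 ± 0.10, adjusted p = 2.47e-05). Every positive library was below every negative one for these genes. Cited1, a gene of the least committed progenitors, was not called (-0.47 ± 0.22), although its fractions did not overlap, and neither were Hoxa11 and Hoxd11 (-0.19 ± 0.091 and -0.12 ± 0.084). Gdnf, the growth factor that progenitors and stroma send to the ureteric bud, was the 1 member called higher, at 91.3, 118 and 103 CPM against 86.5, 83.7 and 76.7 CPM (log2 fold change 0.30 ± 0.10, adjusted p = 0.0473), a call that ended without the litter term (adjusted p = 0.248), with DESeq2 (0.0510), without the count filter (0.133), without litter 3 (0.168), without the positive library of litter 2 (0.145) or 3 (0.338) and without the negative library of litter 1 (0.0906) or 2 (0.247). Its fractions did not overlap.

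**Figure D3:**
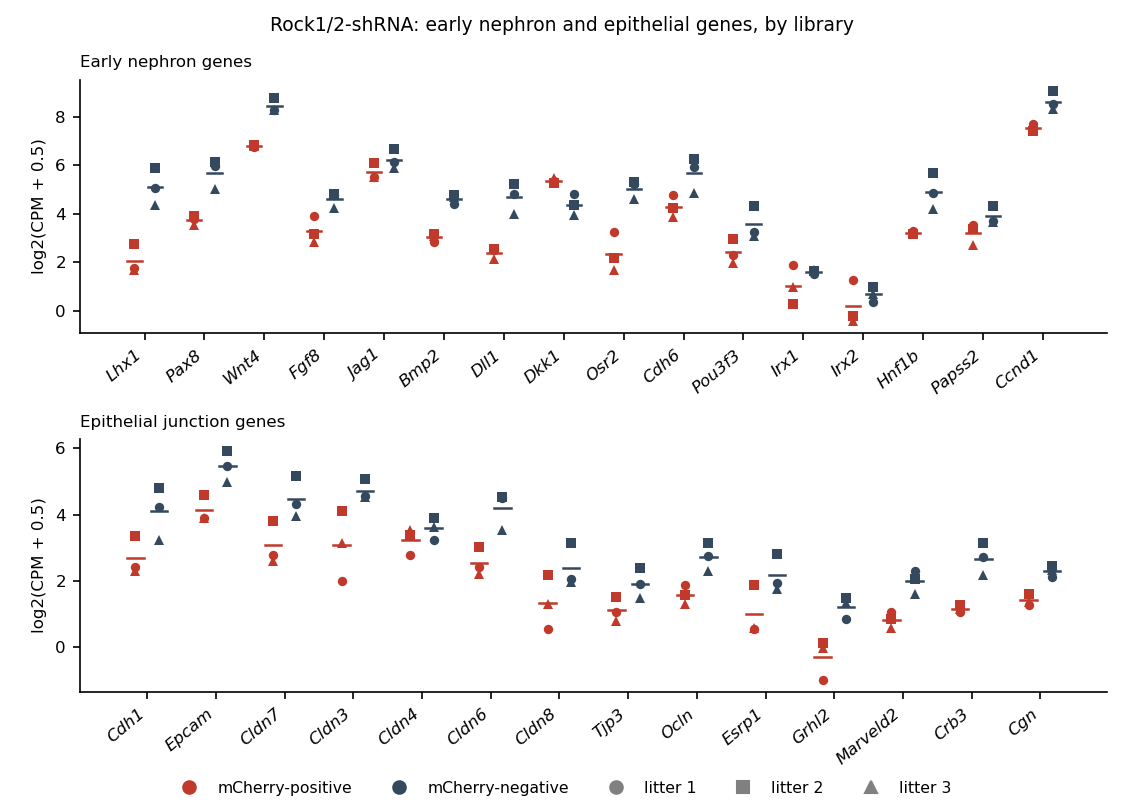
Levels as log2(CPM + 0.5) on the vertical axis of each early nephron (top) and epithelial junction (bottom) gene in the 6 libraries with Rock1/2-shRNA; red marks are positive and dark marks negative libraries, the marker shape gives the litter and bars are group means. Lhx1 and Osr2 show the widest gaps in the upper panel, and Dkk1 is the single member whose positive libraries are all above the negative ones.

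Genes of the ureteric bud were lower as well. At the tips 7 of 10 were called lower and none higher, with a median of -0.71, but 2 without the litter term. Wnt11, secreted by tip cells, stood at 13.8, 14.2 and 12.5 CPM against 26.1, 30.8 and 24.4 CPM (log2 fold change -1.04 ± 0.14, adjusted p = 1.10e-05) with separate fractions. Ret, the receptor for Gdnf, stood at 0.320, 2.25 and 1.47 CPM against 2.61, 4.73 and 2.85 CPM (log2 fold change -1.20 ± 0.31, adjusted p = 0.00849), a call that ended without the litter term (adjusted p = 0.0702) and without the negative library of litter 2 (0.0518). Sox9 was -0.73 ± 0.15, a call that ended without the litter term (adjusted p = 0.126). In the trunk 3 of 12 were called lower, among them Krt19 at 5.13, 8.76 and 5.63 CPM against 13.5, 16.9 and 12.8 CPM (log2 fold change -1.07 ± 0.23, adjusted p = 0.00158). Calb1 (calbindin) was not called (-0.61 ± 0.33), but was -1.06 and called without the positive library of litter 3 (adjusted p = 0.0235).

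Genes of epithelial junctions, which nephron and ureteric epithelia share, were lower in 12 of 14 cases and higher in none, with a median of -1.38. Epcam stood at 14.4, 23.8 and 14.4 CPM against 43.5, 60.9 and 31.5 CPM, with litter 2 highest in both fractions and no overlap (log2 fold change -1.36 ± 0.22, adjusted p = 0.000190). Cdh1 (E-cadherin) stood at 4.81, 9.76 and 4.41 CPM against 18.4, 27.5 and 8.98 CPM (log2 fold change -1.47 ± 0.23, adjusted p = 9.38e-05), where the positive library of litter 2 reached above the negative library of litter 3 although each litter gave a lower positive value. The claudin genes Cldn6 and Cldn7 and the polarity gene Crb3 were lower by similar amounts (-1.75 ± 0.22, -1.41 ± 0.26 and -1.87 ± 0.30). Cldn4 was not called (-0.35 ± 0.23).

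Endothelial genes were lower in 9 of 16 cases and higher in none, with a median of -0.77. Cldn5, a tight junction gene of endothelium, stood at 5.45, 11.8 and 6.61 CPM against 18.6, 30.5 and 28.2 CPM (log2 fold change -1.63 ± 0.22, adjusted p = 1.99e-05). Flt1, a receptor of VEGF, stood at 8.65, 19.6 and 17.1 against 27.9, 33.8 and 56.9 CPM (log2 fold change -1.30 ± 0.22, adjusted p = 0.000390). The transcription factor gene Sox17 stood at 2.24, 3.31 and 3.43 CPM against 4.87, 6.68 and 8.55 CPM (log2 fold change -1.18 ± 0.23, adjusted p = 0.000819). The positive libraries lay below the negative ones for all 3 genes. Pecam1, which marks all endothelium, overlapped between fractions, at 14.1, 31.1 and 21.1 against 31, 46.7 and 52.9 CPM (log2 fold change -0.97 ± 0.28, adjusted p = 0.0231), and its call ended without the litter term (adjusted p = 0.0787), with culture in place of litter (0.0640), without the count filter (0.113), without the positive library of litter 1 (0.0854) or 3 (0.0932) and without the negative library of litter 3 (0.0864). Cdh5 (VE-cadherin) overlapped too, at 32.7, 57.5 and 32.3 against 57, 68.6 and 78.4 CPM (log2 fold change -0.78 ± 0.17, adjusted p = 0.00373), and its call ended without litter 3 (adjusted p = 0.0793). Kdr, the main receptor of VEGF, was not called (-0.54 ± 0.20), but was -1.03 and called without the positive library of litter 2 (adjusted p = 0.00282). Tie1 and Eng were not called (-0.57 ± 0.30 and 0.20 ± 0.16).

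The list of podocyte genes went both ways, with 3 of 10 called higher (30%) and 4 lower (40%). Without the litter term, and likewise without litter 3, 1 was higher and 4 lower. Among those higher were Synpo, an actin-binding protein gene, and the cell cycle inhibitor gene Cdkn1c (0.69 ± 0.19 and 0.40 ± 0.10). The call of Synpo ended without the positive library of litter 2 (adjusted p = 0.196) and that of Cdkn1c without the litter term (adjusted p = 0.165) and without litter 3 (0.0794). Those lower were Podxl, Clic5 (-1.77 ± 0.31), Wt1 and Vegfa, a gene that low oxygen induces. Among the defining genes none but Podxl, which endothelium expresses too, could be tested (5.13, 5.32 and 6.37 CPM against 11.2, 12.2 and 12.1 CPM, log2 fold change -1.11 ± 0.23, adjusted p = 0.00112). Wt1, which progenitors and podocytes express, was -0.68 ± 0.089. Of 13 proximal tubule genes 1 was called higher, Cryl1 (0.45 ± 0.13), and of 9 distal tubule genes 1 lower, Wfdc2 (-1.56 ± 0.24), shares of 7.69% and 11.1% that lie near the 11.3% and 9.05% of all genes. Lrp2, the endocytic receptor of the proximal tubule, stood at 14.4, 10.3 and 18.1 CPM against 11.5, 13.7 and 12.7 CPM. Umod of the loop of Henle stood at 24, 22.7 and 60.5 against 15.3, 30.3 and 21.2 CPM, and the fractions overlapped in both genes. Of the neural list 3 of 11 genes were tested, with 1 called higher, 1 called lower and a median of -0.39. The 1 called higher was Stmn2, at 9.61, 5.32 and 3.92 CPM against 1.39, 0.692 and 0.285 CPM (log2 fold change 2.80 ± 0.36, adjusted p = 7.03e-06). The call of Cryl1 ended without the litter term (adjusted p = 0.0543), without the count filter (0.0744), without litter 3 (0.178), without the positive library of litter 3 (0.134) and without the negative library of litter 2 (0.0629) or 3 (0.0713). The neural genes Tubb3 and Sox10 and the mesothelial genes Msln, Upk3b and Lrrn4 had too few counts to test.

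Genes induced by low oxygen, with the glycolytic enzymes they include, were lower throughout. All 18 of 18 were called lower, against 9.05% of all genes, the median log2 fold change was -0.95, and each was lower in the positive library of all 3 litters. Such genes are induced by the HIF transcription factors, which bind the core ACGTG or GCGTG. The promoter windows of 2 members that hold such a core are shown with the cores, on either strand, in capitals (RefSeq, GRCm38.p6, printed on the strand of the gene). That of Car9 is chr4:43506776-43507075 on the plus strand and that of Ankrd37 chr8:45999801-46000100 on the minus strand.
Car9: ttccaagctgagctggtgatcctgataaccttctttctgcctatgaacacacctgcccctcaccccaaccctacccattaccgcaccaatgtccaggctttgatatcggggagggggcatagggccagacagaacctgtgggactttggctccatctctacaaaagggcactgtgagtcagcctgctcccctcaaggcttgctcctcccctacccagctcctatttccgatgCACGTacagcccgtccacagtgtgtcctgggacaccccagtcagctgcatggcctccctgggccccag
Ankrd37: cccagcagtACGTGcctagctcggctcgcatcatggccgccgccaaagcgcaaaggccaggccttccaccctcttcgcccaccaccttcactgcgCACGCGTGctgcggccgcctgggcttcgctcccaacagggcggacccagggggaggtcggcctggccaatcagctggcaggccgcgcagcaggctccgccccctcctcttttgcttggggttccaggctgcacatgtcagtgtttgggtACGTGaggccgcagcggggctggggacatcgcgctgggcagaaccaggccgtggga
Car9 held 1 core, 18 to 14 bases before the start, and Ankrd37 held 4, of which a pair on opposite strands overlap. Of 17 members with a window 16 held a core (94.1%), against 46.7% of 27025 genes. The members were listed as induced by low oxygen, so this share too describes the list and tests nothing in these libraries. Car9, a carbonic anhydrase of the cell surface, stood at 3.84, 2.72 and 3.67 CPM in the positive and 12.2, 20.7 and 15.8 CPM in the negative libraries, which is 5.21-fold lower (log2 fold change -2.38 ± 0.24, adjusted p = 2.69e-07). Adm, the vasodilator adrenomedullin, stood at 11.5, 14.6 and 8.08 CPM against 40.2, 49.2 and 19.7 CPM (log2 fold change -1.69 ± 0.15, adjusted p = 2.80e-08). In both the positive libraries were all below the negative ones. Ankrd37 stood at 75.3, 48.9 and 26.9 CPM against 197, 149 and 58.9 CPM (log2 fold change -1.45 ± 0.13, adjusted p = 7.07e-08), where the negative library of litter 3 lay below the positive library of litter 1. Its call ended without the litter term (adjusted p = 0.154). Vegfa, which attracts endothelium, stood at 225, 168 and 168 against 477, 400.4 and 337 CPM (log2 fold change -1.16 ± 0.11, adjusted p = 1.35e-07). The glucose transporter gene Slc2a1 stood at 152, 131 and 81.3 CPM against 334, 344 and 201 CPM (log2 fold change -1.32 ± 0.091, adjusted p = 7.94e-10). The glycolytic enzyme gene Pgk1 stood at 345, 334 and 301 CPM against 723, 785 and 579.5 CPM (log2 fold change -1.13 ± 0.089, adjusted p = 8.08e-09). Both fractions were lowest in litter 3 for these 2 genes, and no fractions overlapped. Ldha, Aldoa and Tpi1, more abundant enzymes, were lower by less (-0.70 ± 0.089, -0.76 ± 0.097 and -0.48 ± 0.089).

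Genes of the unfolded protein and amino acid stress responses were lower too. Of 19 tested 14 were called lower and none higher, with a median of -0.43, or 6 without the litter term. Trib3 stood at 9.61, 8.40 and 4.65 CPM against 31.9, 32.5 and 16.1 CPM (log2 fold change -1.91 ± 0.22, adjusted p = 2.00e-06). Chac1, which degrades glutathione, stood at 2.56, 6.03 and 3.18 against 9.05, 11.5 and 9.40 CPM (log2 fold change -1.35 ± 0.25, adjusted p = 0.000433). Both are induced by the factors ATF4 and CHOP, and both had separate fractions. Ddit3, which encodes CHOP, stood at 18.9, 17.1 and 21.8 CPM against 37.4, 32.2 and 28.6 CPM (log2 fold change -0.83 ± 0.14, adjusted p = 0.000116). Asns, asparagine synthetase, stood at 34.3, 45.1 and 45 against 58.9, 82.9 and 61.9 CPM (log2 fold change -0.76 ± 0.11, adjusted p = 2.77e-05). Positive libraries were lower without overlap in both. Chaperones of the endoplasmic reticulum moved less, with Hsp90b1 at 768, 711 and 545 CPM against 1111, 979 and 759 CPM (log2 fold change -0.54 ± 0.099, adjusted p = 0.000399), where litter 1 of the positive fraction lay above litter 3 of the negative one. Calr (calreticulin) was not called (-0.16 ± 0.10). Derl3, which takes part in removing misfolded proteins, was among the 12 most decreased genes by the naming rule, at 3.84, 0.473 and 2.69 CPM against 16.8, 11.9 and 12.4 CPM (log2 fold change -2.95 ± 0.41, adjusted p = 4.99e-05).

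Cell cycle genes were slightly higher. Of 25 tested 15 were called higher and none lower, with a median of 0.37, but 4 without the litter term. Tk1, thymidine kinase, stood at 42.9, 44.5 and 41 CPM against 22.9, 24.1 and 21.5 CPM (log2 fold change 0.87 ± 0.11, adjusted p = 7.12e-06). The mitotic kinase gene Plk1 stood at 61.5, 44.6 and 36.2 CPM against 31, 27.5 and 22.4 CPM (log2 fold change 0.75 ± 0.12, adjusted p = 8.03e-05). Ccne1, the cyclin of the start of S phase, stood at 47.4, 50.6 and 45.3 against 30.9, 30.7 and 29.2 CPM (log2 fold change 0.62 ± 0.11, adjusted p = 0.000196). Fractions were separate in all 3. The replication helicase gene Mcm2 was not called (0.050 ± 0.099), nor was Pcna (0.092 ± 0.10), a clamp of the DNA polymerase. Among 16 genes that p53 induces, 4 were called higher and 4 lower, or 2 and 3 without the litter term. The death receptor gene Fas and Phlda3 were higher (1.70 ± 0.37 and 0.51 ± 0.10), Cdkn1a, Bbc3 and Plk2 lower (-0.48 ± 0.094, -0.51 ± 0.096 and -0.59 ± 0.11), and Mdm2 was not called (-0.087 ± 0.085).

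**Figure D4:**
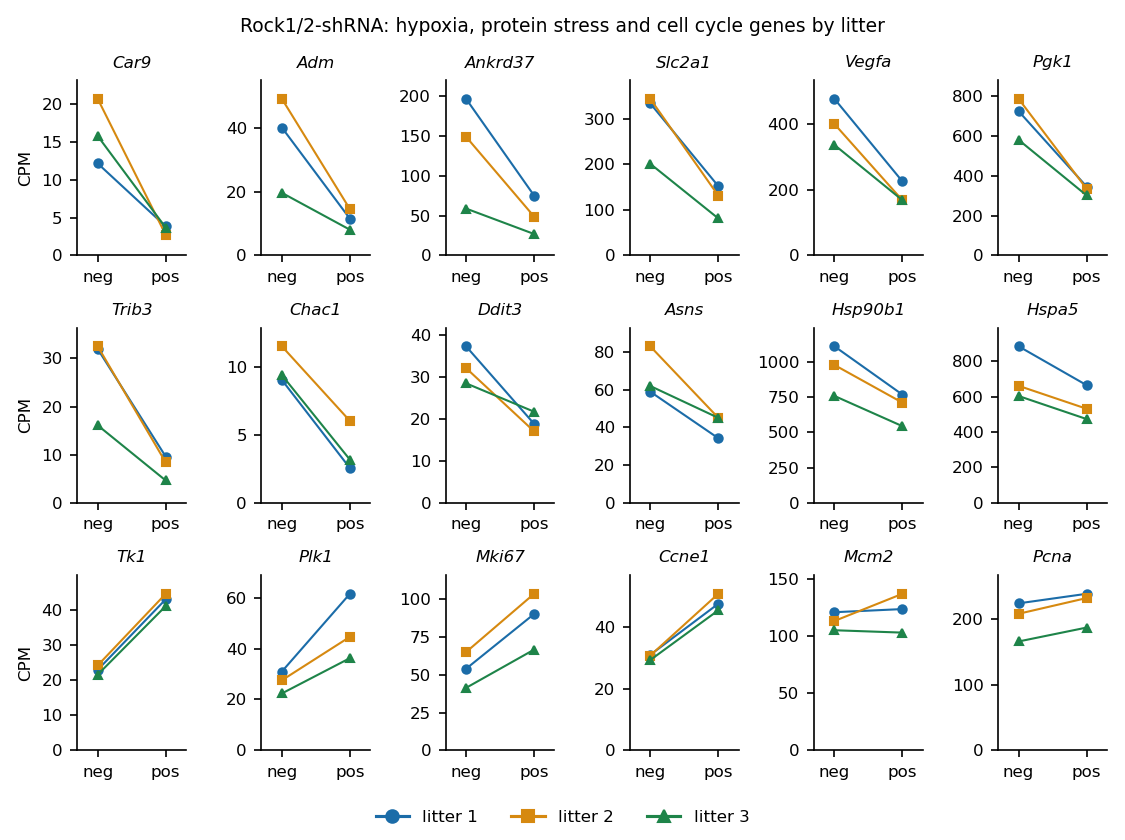
CPM on a linear vertical axis of 6 hypoxia genes (top row), 6 genes of protein and amino acid stress (middle row) and 6 cell cycle genes (bottom row) in the negative (neg) and positive (pos) library of each litter, with lines joining the fractions of a litter. All lines fall in the upper 2 rows; Tk1, Plk1, Mki67 and Ccne1 rise in each litter, and Mcm2 and Pcna, which were not called, are nearly level.

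Feedback genes of Wnt signalling were lower in 7 of 12 cases and higher in 1, with a median of -0.36, and 4 were lower without the litter term. The 1 higher was Dkk1, given above. Axin2, the common readout of the pathway, stood at 38.4, 38.2 and 36.7 CPM against 50.5, 64.2 and 54.9 CPM (log2 fold change -0.63 ± 0.090, adjusted p = 2.38e-05). Myc, Tcf7 and Ccnd1 were also lower (-0.79 ± 0.12, -0.72 ± 0.12 and -1.16 ± 0.18), with separate fractions in each. Wnt targets are used by nephron progenitors and early nephrons, whose genes were lower as well, and their part in this difference was not tested.

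Notch genes went both ways, with 3 of 15 higher and 7 lower (1 and 4 without the litter term). The ligand gene Dll1 was given above, and Hey1, a target, stood at 45.8, 49.5 and 36.5 CPM against 106, 105 and 64.6 CPM (log2 fold change -1.10 ± 0.14, adjusted p = 4.86e-06). Lfng, which modifies the receptors, was lower too (-1.26 ± 0.24). The related targets Hey2 and Heyl were higher. Hey2 stood at 20.8, 36.6 and 22.5 CPM against 15.1, 16.9 and 13.1 CPM (log2 fold change 0.83 ± 0.16, adjusted p = 0.000787). Heyl stood at 124, 186 and 98.2 against 81.7, 94.3 and 59.8 CPM (log2 fold change 0.74 ± 0.12, adjusted p = 9.04e-05), a call that ended without the litter term (adjusted p = 0.0793). The receptor gene Notch3, which smooth muscle expresses, was also higher (0.39 ± 0.12), a call that ended without the litter term (adjusted p = 0.0625), without the positive library of litter 2 (0.239) and without the negative library of litter 1 (0.115). The receptor genes Notch1 and Notch2 and the target Hes1 were not called (0.24 ± 0.14, 0.13 ± 0.11 and -0.11 ± 0.089).

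Sensors of foreign nucleic acid and genes induced by interferon were modestly higher, 6 of 14 with none lower and a median of 0.73. Isg15 stood at 7.37, 4.50 and 9.63 CPM against 1.91, 2.80 and 3.42 CPM (log2 fold change 1.31 ± 0.23, adjusted p = 0.000207). Ifih1, a sensor of double-stranded RNA, stood at 4.81, 8.28 and 8.81 against 2.00, 2.42 and 2.28 CPM (log2 fold change 1.68 ± 0.28, adjusted p = 0.000133). Cgas, a sensor of DNA, stood at 13.5, 13.4 and 14.2 against 7.31, 7.15 and 9.33 CPM (log2 fold change 0.76 ± 0.17, adjusted p = 0.00327). The fractions were separate in all 3, at low levels. Ifit1, Mx1, Rsad2 and Tlr9 had too few counts to test. Of 11 genes downstream of NF-kB, 5 were called higher and 2 lower. The chemokine gene Cxcl12 stood at 569, 567 and 409 CPM against 145, 100.4 and 84.4 CPM (log2 fold change 2.19 ± 0.11, adjusted p = 9.92e-12). The adhesion gene Icam1 stood at 20.8, 16.3 and 14.4 against 5.57, 4.61 and 6.27 CPM (log2 fold change 1.58 ± 0.26, adjusted p = 0.000148), and the related gene Vcam1 was 1.17 ± 0.13. The chemokine genes Ccl2 and Ccl7 were 1.33 ± 0.27 and 1.93 ± 0.43. Nfkbia, the pathway's own inhibitor, was lower at 125, 129 and 139.6 CPM against 166, 170.3 and 183 CPM (log2 fold change -0.45 ± 0.092, adjusted p = 0.00118). The other member called lower was the inhibitor gene Tnfaip3 (-0.67 ± 0.22), a call that ended without the litter term (adjusted p = 0.424), with DESeq2 (0.0914), without the positive library of litter 1 (0.103), 2 (0.153) or 3 (0.0614) and without the negative library of litter 1 (0.0591) or 2 (0.219). Macrophages express many of these genes, and macrophage genes were higher in the same libraries, but their part was not tested.

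Most genes on which the vector depends were not called. For entry, heparan sulfate and uptake, 2 of 25 genes were called higher (8%) and 6 lower (24%), against 11.3% and 9.05% of all genes. Without the litter term 1 was higher and 2 lower, and without litter 3 the counts were 2 and 2, which is no excess over those shares. AU040320, the gene of the intracellular AAV receptor, stood at 20.8, 20.2 and 14.9 CPM against 16.7, 21.3 and 14.5 CPM, with overlapping fractions (0.056 ± 0.14). Gpr108, which AAV also needs, was 0.12 ± 0.13. Sdc3 and Sdc4, proteoglycans that carry heparan sulfate, moved in opposite directions. Sdc3 stood at 119, 162 and 114 CPM against 95, 98.9 and 81.2 CPM (log2 fold change 0.48 ± 0.10, adjusted p = 0.00164). Sdc4 stood at 35.9, 41.1 and 42.4 CPM against 70.2, 84.3 and 57.2 CPM (log2 fold change -0.86 ± 0.18, adjusted p = 0.00188). The fractions were separate in both. Of 13 genes of the microRNA pathway 1 was called, Ago4 (log2 fold change -0.56 ± 0.18, adjusted p = 0.0257), and that call ended without the litter term (adjusted p = 0.0789), without litter 3 (0.0718), without the positive library of litter 2 (0.174) or 3 (0.116) and without the negative library of litter 2 (0.199). Drosha, Dicer1 and Ago2, which cut the hairpin and use its product, were not called (-0.035 ± 0.12, 0.087 ± 0.13 and -0.096 ± 0.15). The synthesis of cholesterol and fatty acids was nearly level, with 1 of 21 genes higher, Mvk (0.31 ± 0.11), and 1 lower, Scd2 (-0.34 ± 0.10). The call of Mvk ended without the litter term (adjusted p = 0.109), with culture in place of litter (0.0688), with DESeq2 (0.0606), without the count filter (0.219), without litter 3 (0.0780), without the positive library of litter 1 (0.124), 2 (0.165) or 3 (0.0568) and without the negative library of litter 1 (0.129) or 3 (0.155), and that of Scd2 without the litter term (adjusted p = 0.230), with culture in place of litter (0.0560), without the positive library of litter 1 (0.124) or 2 (0.0964) and without the negative library of litter 1 (0.101) or 2 (0.0711).

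Some genes varied more between litters than between fractions. Fos stood at 1248, 149 and 407 CPM in the positive and 977, 140.4 and 317 CPM in the negative libraries, so that litter 1 exceeded litter 2 by far in both fractions while the fractions of a litter were alike (0.22 ± 0.13). Egr1, Junb and Ier2, which share with Fos a fast response to handling, were likewise highest in litter 1 in both fractions. Of 18 such genes 2 were called higher, Dusp1 (0.38 ± 0.12) and Zfp36 (0.44 ± 0.13), and 1 lower, Ier3 (-1.15 ± 0.14), and none without the litter term. The call of Dusp1 ended without the litter term (adjusted p = 0.815), without the positive library of litter 1 (0.0694), 2 (0.0750) or 3 (0.0523) and without the negative library of litter 1 (0.126), that of Zfp36 without the litter term (adjusted p = 0.784), without the positive library of litter 1 (0.126) and without the negative library of litter 1 (0.153) or 3 (0.0655), and that of Ier3 without the litter term (adjusted p = 0.0939). Embryonic globin genes varied most in the positive fraction. The embryonic globin gene Hba-x stood at 51.9, 16.3 and 218 CPM against 1.13, 2.88 and 1.14 CPM (log2 fold change 5.28 ± 1.05, adjusted p = 0.00486). Hbb-y stood at 136, 56.9 and 555 CPM against 3.65, 14.5 and 4.27 CPM (log2 fold change 4.44 ± 0.95, adjusted p = 0.00760), with litter 3 by far the highest. The call of Hba-x ended in a fit to the 6 libraries alone (adjusted p = 0.0876) and without litter 3 (0.175), and that of Hbb-y in a fit to the 6 libraries alone (adjusted p = 0.164) and without litter 3 (0.163). Ahsp, which stabilises globin, was the 1 erythroid gene called lower, at 0, 0.118 and 0.490 CPM against 0.609, 1.61 and 1.71 CPM (log2 fold change -2.68 ± 0.83, adjusted p = 0.0251), and its call ended without the litter term (adjusted p = 0.0812), with DESeq2 (0.0636), without litter 3 (0.0720), without the positive library of litter 1 (0.0755) or 2 (0.200) and without the negative library of litter 3 (0.0684). Near-identical globin copies can share reads, so their counts are uncertain.

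Other genes led the decreases without belonging to a list. Gpr15lg, which encodes a ligand of the receptor GPR15, had the largest decrease among genes that met the naming rule given below. It stood at 1.60, 2.84 and 1.96 CPM against 25.7, 30.2 and 29.2 CPM (log2 fold change -3.65 ± 0.21, adjusted p = 6.42e-11). The protease inhibitor gene A2m was the most abundant of these, at 23.7, 26.2 and 34.6 CPM against 137, 146 and 219.6 CPM (log2 fold change -2.58 ± 0.16, adjusted p = 6.48e-10). The fractions lay far apart in both. Clec18a and Pcp4 were lower by 3.12 and 2.37 on the log2 scale. Npy, the gene of neuropeptide Y, stood at 1.28, 2.13 and 2.20 CPM against 10, 12.2 and 6.41 CPM (log2 fold change -2.35 ± 0.35, adjusted p = 3.87e-05). Kcne3, a potassium channel subunit gene, stood at 1.60, 2.84 and 2.94 against 7.40, 11.6 and 19.4 CPM (log2 fold change -2.31 ± 0.23, adjusted p = 2.69e-07). The fractions of both were separate.

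The fractions were then compared between vectors, to ask whether any difference of positive from negative cells was particular to the Rock1/2 hairpins. The pattern was broadly shared. With scramble-shRNA 3848 genes were called (23.3%), 2059 higher (12.4%) and 1789 lower (10.8%), and with Mylk-shRNA 4019 (24.3%), 2182 higher (13.2%) and 1837 lower (11.1%). The vectors share no library, but their libraries come from the same 3 litters. Of the genes called higher with Rock1/2-shRNA, 78.5% were also called higher with scramble-shRNA, which is 71.3% of the latter, and of those called lower 72.2% (60.4% of the latter). With Mylk-shRNA the shares were 81.3% (69.8%) and 73.6% (60%), and no gene was called in opposite directions. Genes are not independent replicates, but over all 16544 of them the values of Rock1/2-shRNA correlated with r = 0.861 with scramble-shRNA and 0.865 with Mylk-shRNA.

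**Figure D5:**
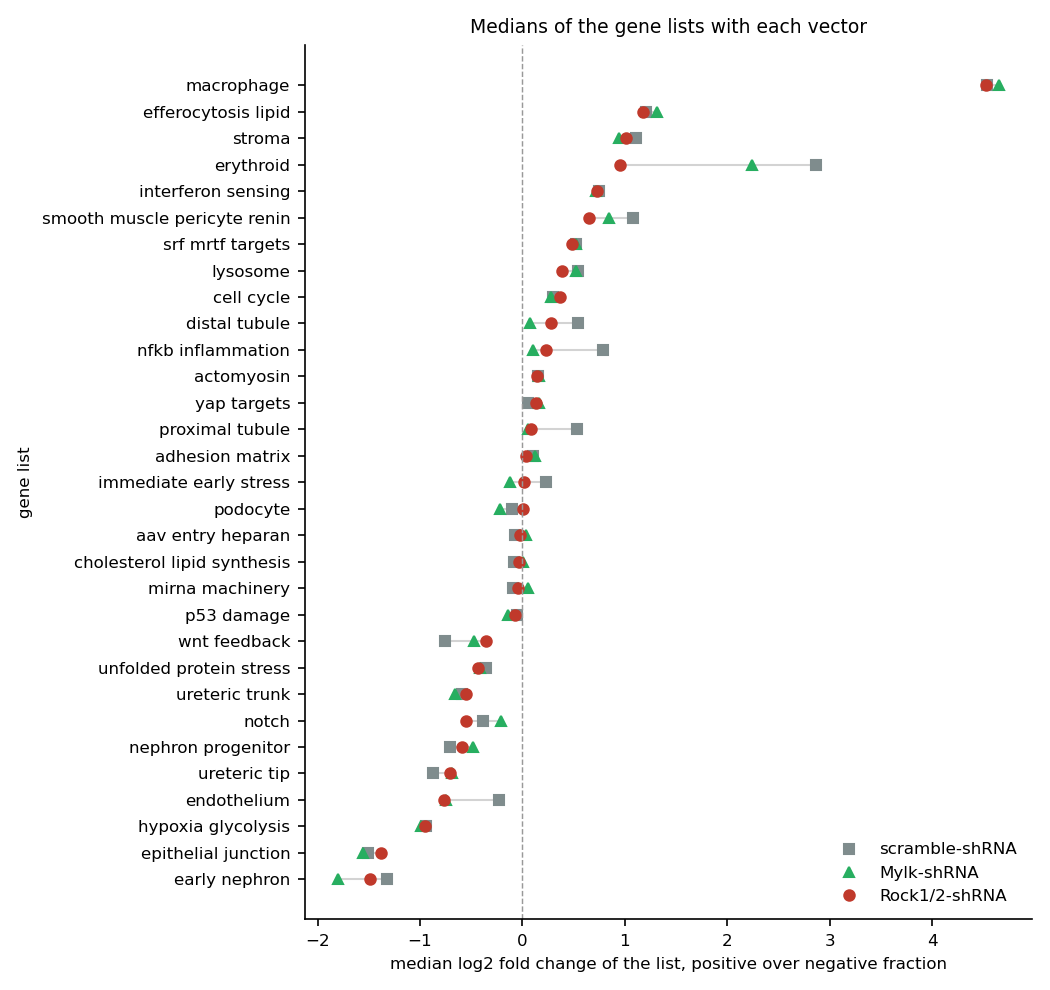
Median log2 fold change of the positive over the negative fraction (horizontal axis) of each gene list with at least 5 tested members (vertical axis), for Rock1/2-shRNA (red circles), scramble-shRNA (grey squares) and Mylk-shRNA (green triangles). The 3 marks nearly coincide for macrophage, hypoxia and actomyosin genes, and the mark of Rock1/2-shRNA lies lowest for erythroid genes (0.95 against 2.87 and 2.24) and that of scramble-shRNA apart from the others for endothelial genes.

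No gene passed the test of the difference between vectors. The interaction called 0 of 16544 genes against scramble-shRNA (0%) and 0 against Mylk-shRNA (0%), with 437 and 400 at an unadjusted p under 0.05 by edgeR, and DESeq2 called 0 in both, with 257 and 212. Each of these counts is a share of the genes tested below 0.05, fewer than that threshold would give without any difference. The unadjusted p-values below are to be read against that. Without the count filter 2 genes were called against scramble-shRNA, Ctla2a and Fabp4 (adjusted p = 0.0149 for each). Ctla2a, which encodes an inhibitor of cysteine proteases, stood at 3.74, 7.10 and 6.73 against 10.2, 17.7 and 32.4 CPM with Rock1/2-shRNA and at 9.87, 9.84 and 9.04 against 6.64, 11.5 and 24 CPM with scramble-shRNA (-1.30 ± 0.38, unadjusted p = 0.00284 with the filter). Fabp4 encodes a fatty acid carrier found in fat cells, macrophages and small vessels, and was named after its value was seen. The median standard error of an interaction was 0.22 on the log2 scale, so differences much smaller than 0.5 could not be resolved gene by gene. Larger ones did not pass over all genes either, such as -1.13 ± 0.31 for the chemokine gene Ccl11 against scramble-shRNA. The lack of calls therefore does not exclude differences of that size. Macrophage genes had medians of 4.53 with Rock1/2-shRNA, 4.54 with scramble-shRNA and 4.65 with Mylk-shRNA, and hypoxia genes -0.95, -0.94 and -0.99. Against scramble-shRNA 3 of the 16 macrophage genes nonetheless had an interaction at an unadjusted p under 0.05, all with a smaller difference under Rock1/2-shRNA, and none against Mylk-shRNA. These were C1qc (-1.43 ± 0.45, unadjusted p = 0.00483), C1qb (-1.78 ± 0.61, unadjusted p = 0.00872) and Fcer1g (-0.74 ± 0.31, unadjusted p = 0.0281). Erythroid genes had medians of 0.95 with Rock1/2-shRNA, 2.87 with scramble-shRNA and 2.24 with Mylk-shRNA. Of 8 tested 2 were called higher and 1 lower with Rock1/2-shRNA, and 6 and 0 with each of the other vectors. An interaction at an unadjusted p under 0.05 was found for 3 against scramble-shRNA, Ahsp (-3.79 ± 1.15, unadjusted p = 0.00345), Hbb-bs (-2.14 ± 0.65, unadjusted p = 0.00813) and Hbb-bt (-2.39 ± 0.75, unadjusted p = 0.00955), and for 1, Hbb-bt, against Mylk-shRNA. None passed over all genes (adjusted p = 1.00 for each), and globin levels varied between litters as given above. Endothelial genes had a median of -0.77 with Rock1/2-shRNA, -0.23 with scramble-shRNA and -0.75 with Mylk-shRNA. Of the 16 members 6 had an interaction with scramble-shRNA at an unadjusted p under 0.05, and none with Mylk-shRNA. Sox17 had the smallest of these, with a difference of -1.08 ± 0.33, unadjusted p = 0.00343, adjusted p = 1.00. Its log2 fold change was -1.18 ± 0.23 with Rock1/2-shRNA and -0.097 ± 0.23 with scramble-shRNA. Egfl7 and Esam differed by -0.53 ± 0.20, unadjusted p = 0.0130 and -0.51 ± 0.21, unadjusted p = 0.0233.

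Among single genes, those with the smallest interaction p that met the naming rule are given as values, since none passed (adjusted p = 1.00 for each). Against scramble-shRNA, Nudt14 had the smallest p among the downward differences (-1.0 ± 0.26, unadjusted p = 0.00101). It stood at 12.2, 10.3 and 9.06 CPM in the positive and 18, 15 and 11.4 CPM in the negative libraries with Rock1/2-shRNA, and at 14.2, 14.7 and 16.8 against 12.1, 11.4 and 8.23 CPM with scramble-shRNA. Its positive library was the lower one in each litter with Rock1/2-shRNA and the higher one in each litter with scramble-shRNA. Kcne3 stood at 3.02, 4.67 and 3.49 against 5.50, 8.46 and 11.8 CPM with scramble-shRNA, a smaller difference than the one given above (-1.21 ± 0.34, unadjusted p = 0.00197). The chemokine gene Ccl11 stood at 19.2, 17.2 and 9.30 against 3.22, 2.42 and 2.56 CPM with Rock1/2-shRNA and 18.5, 18.7 and 10.8 against 1.28, 1.56 and 1.29 CPM with scramble-shRNA (-1.13 ± 0.31, unadjusted p = 0.00135). In the other direction Fancd2, a gene of DNA crosslink repair, differed by 0.75 ± 0.22, unadjusted p = 0.00219. Znrf3, whose product removes Wnt receptors, stood at 13.5, 14.1 and 14.9 CPM against 16.6, 18.3 and 15.7 CPM with Rock1/2-shRNA and at 9.41, 10.8 and 8.56 against 17.7, 19.1 and 17.7 CPM with scramble-shRNA (0.63 ± 0.19, unadjusted p = 0.00300). Against Mylk-shRNA the smallest p of each direction belonged to Acrbp (1.18 ± 0.31, unadjusted p = 0.00119) and Sh3pxd2b (-0.40 ± 0.13, unadjusted p = 0.00469). Ankrd37 of the hypoxia list was lower by more with Mylk-shRNA, at 60.7, 36 and 17.8 CPM against 203, 175 and 68.2 CPM (0.57 ± 0.19, unadjusted p = 0.00668).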

How the data were processed

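The authors deposited, for 18 libraries, expected counts per gene (22.13 to 27.37% of the values above 0 were not whole) and CPM, which equals each count column divided by its sum. Per the submitters' processing notes, STAR 2.7.11 and featureCounts (Subread 2.1.1) were used with build GRCm39, beside MultiQC 1.32, FastQC 0.12.1, SAMtools 1.22.1 and fastp 0.24.0. No source used here gives the gene annotation, the strand setting or the sharing of reads with several matches. Without a strand setting, reads of a gene and of its antisense partner cannot be told apart. Per the labels' protocols, polyadenylated RNA was captured and libraries were made by tagmentation.

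CPM values are printed as deposited. Counts were rounded, 92 spike-in rows were removed from 78409 rows, and genes were kept by edgeR's filterByExpr (minimum count 10, total 15), which left 16544. edgeR 4.0.16 (R 4.3.3, limma 3.58.1) fitted all 18 libraries, with TMM scaling, a term for each of the 6 groups and a term for the litter, by robust quasi-likelihood with 10 residual degrees of freedom. P-values were adjusted over all genes by the Benjamini-Hochberg method and called under 0.05. The script was tested on simulated data. All fold changes are log2 values of this fit, and errors are its standard errors. The exact permutation test used CPM and left out the pairing by litter. Depth was 3121616 to 11492560 counts in the 6 libraries, and the median SE was 0.15 (0.12 for genes of at least 10 CPM). The 3 libraries of a group are separate litters.

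The pairing comes from the labels, which give a number to the litter. The deviations of same-litter fractions from their group means correlated with r = 0.39, 0.35 and 0.52, and those of different litters with -0.39 to 0.04. No 2 libraries of a group agreed within sampling noise, since the chi-square per gene was 4.29 to 24.7.

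The 33 gene lists and the genes named were chosen with earlier results of these data known. Named were the targets, the 12 highest and 12 lowest called genes of at least 5 CPM with 1 sign in 3 litters, each list's defining members and those with the smallest p, and the genes with the smallest interaction p. Predicted genes, Rik clones, pseudogenes, Y-linked genes and genes without a symbol were left out of the rankings by fold change and by interaction p. A selection is printed, and members that did not pass were added beside them after their values were seen. Alternatives were no litter term, the culture as block, DESeq2 1.42.0 size factors or its test, no count filter, the compared libraries alone, no litter 3, and each library left out. Promoter windows are RefSeq's (GRCm38.p6), not of the build of the counts, and were matched by gene symbol. mCherry transcripts were not analysed here.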

Additional observations from a re-analysis of the deposited data

How the results depend on the processing

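Without the litter term (no replicate block) 1859 genes were called, 1148 higher and 711 lower. The fits that left out 1 library called 2029 to 2790 genes, 1208 to 1612 higher and 821 to 1178 lower. The other alternatives kept these counts within 1.5 times those given, and DESeq2 size factors moved the share of calls that were higher from 55.5% to 55.6%. Both interactions called 0 genes in every alternative, except for 2 against scramble-shRNA without the count filter. Without the litter term, too, both called 0. Rock1 ranged from -0.18 to 0.027 and Rock2 from -0.33 to -0.16 when 1 library was left out, and Rock2 was -0.24 and called when the 6 libraries were fitted alone. The cause was not tested.

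Of 177 named genes that were called, none changed sign in any alternative; 25 lost the call without the litter term, 13 without litter 3 and 24 in some fit that left out 1 library. Some values that did not pass changed sign. Without litter 3 Ago2 was 0.029, Drosha 0.050, Lrp2 -0.13 and Umod -0.0030. Umod was not near 0 in all fits, since it ranged from 0.076 to 0.98 when 1 library was left out. With 1 library left out, the values ranged for AU040320 from -0.062 to 0.23, Drosha from -0.078 to 0.031, Lrp2 from -0.12 to 0.25, Mcm2 from -0.024 to 0.11, Ppp1r12a from -0.14 to 0.028, Tfeb from -0.030 to 0.13, Rock1 in the interaction with scramble-shRNA from -0.030 to 0.22 and Rock2 in the interaction with scramble-shRNA from -0.23 to 0.017. The number of litters and the depth of the smallest library limit what low genes can show.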

Other observations

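Gene families were also counted after their values had been seen, so the counts describe these libraries and test nothing. Some members, such as Fcer1g, Col1a1 and Cldn7, belong to the lists above and are counted again here. Chemokine genes were higher in the positive fraction with Rock1/2-shRNA in 11 of 18 cases and lower in none, with a median log2 fold change of 1.96. Ccl11, which attracts eosinophils, stood at 19.2, 17.2 and 9.30 CPM against 3.22, 2.42 and 2.56 CPM (log2 fold change 2.43 ± 0.19, adjusted p = 6.43e-09). Cxcl13, a signal to B cells, stood at 27.6, 11.5 and 6.37 CPM against 2.35, 0.922 and 1.85 CPM (log2 fold change 3.06 ± 0.35, adjusted p = 3.01e-06). In both the positive library of litter 1 was highest, and in neither did the fractions overlap. Cxcr4, the receptor of Cxcl12, went the other way from its ligand, at 46.1, 58 and 43.1 CPM against 95.1, 96 and 68.5 CPM (log2 fold change -0.87 ± 0.13, adjusted p = 5.43e-05). All 5 of 5 tested genes of Fc receptors were higher, among them Fcer1g at 27.2, 44.4 and 39.2 CPM against 1.31, 2.07 and 1.85 CPM (log2 fold change 4.35 ± 0.17, adjusted p = 1.29e-13).

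Hox genes were lower in 11 of 33 cases and higher in none, with a median of -0.21. Hoxb6 stood at 38.3, 25.4 and 33.3 CPM against 57.3, 53.1 and 58.2 CPM (log2 fold change -0.88 ± 0.12, adjusted p = 1.24e-05), and Hoxb2, Hoxb3, Hoxb5 and Hoxb9 were -0.63 ± 0.11, -0.60 ± 0.091, -0.66 ± 0.13 and -0.73 ± 0.16. The progenitor genes Hoxa11 and Hoxd11 had smaller values in the same direction and were not called. Collagen genes divided, with 18 of 40 higher and 6 lower. Col8a1 and Col24a1 were higher (1.87 ± 0.26 and 2.04 ± 0.22), whereas Col13a1, Col7a1 and Col2a1 were lower (-1.21 ± 0.15, -1.19 ± 0.17 and -0.95 ± 0.17). Claudin genes were lower in 6 of 14 cases, and the 2 that were higher were Cldn1 at 52.2, 39.4 and 29.4 CPM against 14.7, 12.6 and 8.26 CPM (log2 fold change 1.68 ± 0.17, adjusted p = 2.87e-07) and Cldn11 at 26.3, 19.9 and 9.79 CPM against 5.74, 3.80 and 3.70 CPM (log2 fold change 1.99 ± 0.21, adjusted p = 3.86e-07). Both had separate fractions. The guidance gene Sema3e was lower at 4.48, 3.90 and 4.16 CPM against 14.4, 20.1 and 19.7 CPM (log2 fold change -2.15 ± 0.20, adjusted p = 9.53e-08), and the related Sema3d higher at 27.2, 29.7 and 24.7 CPM against 13.8, 10.6 and 6.98 CPM (log2 fold change 1.33 ± 0.19, adjusted p = 2.28e-05). Of 7 genes of IGF-binding proteins, 2 were called higher, among them Igfbp6 (2.21 ± 0.13), and 2 lower, among them Igfbp2 (-1.02 ± 0.085).

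All 81 tested genes of ribosomal proteins had a negative log2 fold change, with a median of -0.27, but 8 were called. Nuclear genes of oxidative phosphorylation were nearly level, with 2 of 76 higher, none lower and a median of 0.037.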
